A study of Mus musculus with 4 samples.

Results

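The genes described are those of the proteasome, chosen by symbol: every gene whose symbol starts with Psma, Psmb, Psmc, Psmd, Psme, Psmf or Psmg followed by a digit, with 1 row kept per symbol. They number 50 of the 23653 gene symbols in the rows of the deposited table that carry a usable value. The cells were TBV2, a line of mouse embryonic stem (ES) cells kept in serum and LIF, on feeder cells and at high density as the series' design text states. The knockdown (KD) group was 3 clones with lowered T-UCstem1, a long noncoding RNA that holds an ultraconserved element, and the control was 1 library labelled N.T. (NT), taken as non-targeting. How the knockdown was made, and whether the NT cells were themselves 1 clone, is not stated in the labels. The authors combined the 3 clones into 1 FPKM per gene (fragments per kilobase of transcript after scaling to sequencing depth), and the NT library gave the other. No spread between clones or between control cultures therefore accompanies any value, and the differences below have no replicate check other than the authors' own p-values, in which the NT group has 1 library.

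The proteasome is the protease of the cytosol and nucleus that degrades proteins tagged with ubiquitin. Its core particle, the 20S proteasome, is a barrel of alpha and beta rings, and the regulatory particle, 19S, caps it with a base of ATPases that unfold the substrate and a lid that removes the ubiquitin chain. Cells exposed to interferon gamma replace the catalytic beta subunits with immune forms and raise the PA28 alpha/beta activator, which shifts the peptides made for MHC class I. Human ES cells are known for high proteasome activity, and ES cells for low antigen presentation.

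Proteasome genes differed little between KD and NT cells, and none was called. The authors' deposited table tested 47 of the 50 genes, and 0 were marked higher and 0 lower by Cuffdiff's q-value, where 0.963% of all 15477 tested rows were marked higher and 0.187% lower. None reached an unadjusted p under 0.05 either, against 8.88% of all tested rows. The lowest values belonged to Psmc1, with p = 0.0644 and q = 0.631 by the authors' deposited table. The fold used throughout is log2((KD FPKM + 1)/(NT FPKM + 1)), positive where the KD value is higher and understating the change of genes with low FPKM. No gene reached 0.5 on this scale in either direction, whereas 9.94% of all tested rows lay at 0.5 or more and 7.24% at -0.5 or less. With a pseudocount of 0.1 FPKM in place of 1, 3 genes passed that size, Psma8 and the untested Psmb8 and Psme2b. The 47 tested genes had a median of 0.098, beside 0.0069 over all tested rows. Of them, 37 lay above 0 and 10 below, where 50.9% of all tested rows lay above 0. With an interquartile range over all tested rows from -0.20 to 0.22, 33 of the 47 sat inside it. Whether the small shared offset exceeds the spread between cultures was not tested, since no culture has its own value. The shares of all tested rows cover genes of every FPKM level. Whether other genes at the levels of the proteasome genes differ as little was not tested.

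**Figure D1:**
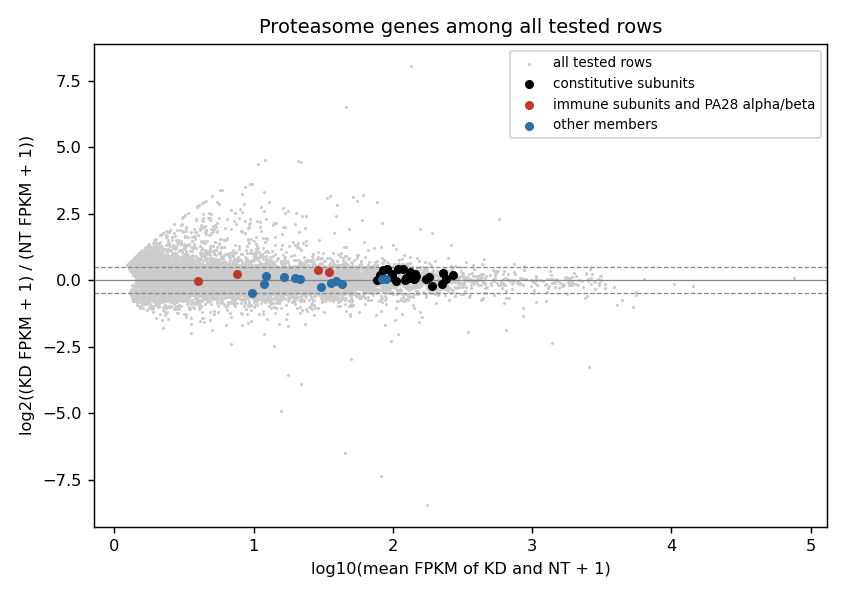
Log2 ratio of KD to NT FPKM (y axis, pseudocount of 1) against the log10 of the mean FPKM plus 1 (x axis) for every tested row (grey), with constitutive subunits in black, immune subunits and PA28 alpha/beta in red and other proteasome genes in blue. Dashed lines mark 0.5 and -0.5, and all 47 tested proteasome genes lie between them.

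The 50 symbols fall into classes by their known place in the particle. The constitutive subunits number 31, with 14 in the 20S core and 17 in the 19S particle. The immune catalytic subunits number 3 and the PA28 alpha/beta activator has 2. A further 7 are assembly chaperones, 3 are other activators or inhibitors, and 2 are tissue-restricted subunits. Psmc3ip, a cofactor of meiotic recombinases, and Psme2b, a gene named after Psme2, fit the symbol rule without encoding a canonical subunit and enter no class median. The 3 genes that the authors did not test, Psmb8, Psmb11 and Psme2b, were under 1 FPKM in both groups. Reads of 4 members were pooled with neighbouring genes in the deposited rows: Psme3 with Aoc2, Psmg1 with Brwd1, Psmb10 with Ctrl, and Psme2b with a pair of Rik loci. Those values cannot be assigned to the proteasome gene alone. Psma3 had a second, low row, at 2.96 FPKM in KD and 2.95 FPKM in NT, which was not used.

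The 31 constitutive subunits were expressed at a similar, high level in both groups. They ranged between 76.0 and 287 FPKM in KD cells, with a median of 133, and between 71.9 and 253 FPKM in NT cells, with a median of 122. The spread among the genes was 3.78-fold in KD and 3.53-fold in NT, far wider than the spread of their KD to NT ratios, which lay between 0.859 and 1.34. The 4 highest levels in each group belonged to Psmb7, Psmb3, Psmb6 and Psmb4, all beta subunits of the core. Psmb7, the trypsin-like catalytic subunit, ranked first in both groups. Of the 10 most abundant constitutive genes 8 were shared by KD and NT. The largest shift in rank was that of Psmc3, which was 11th in KD cells and 20th in NT cells, a move of 9 places.

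**Figure D2:**
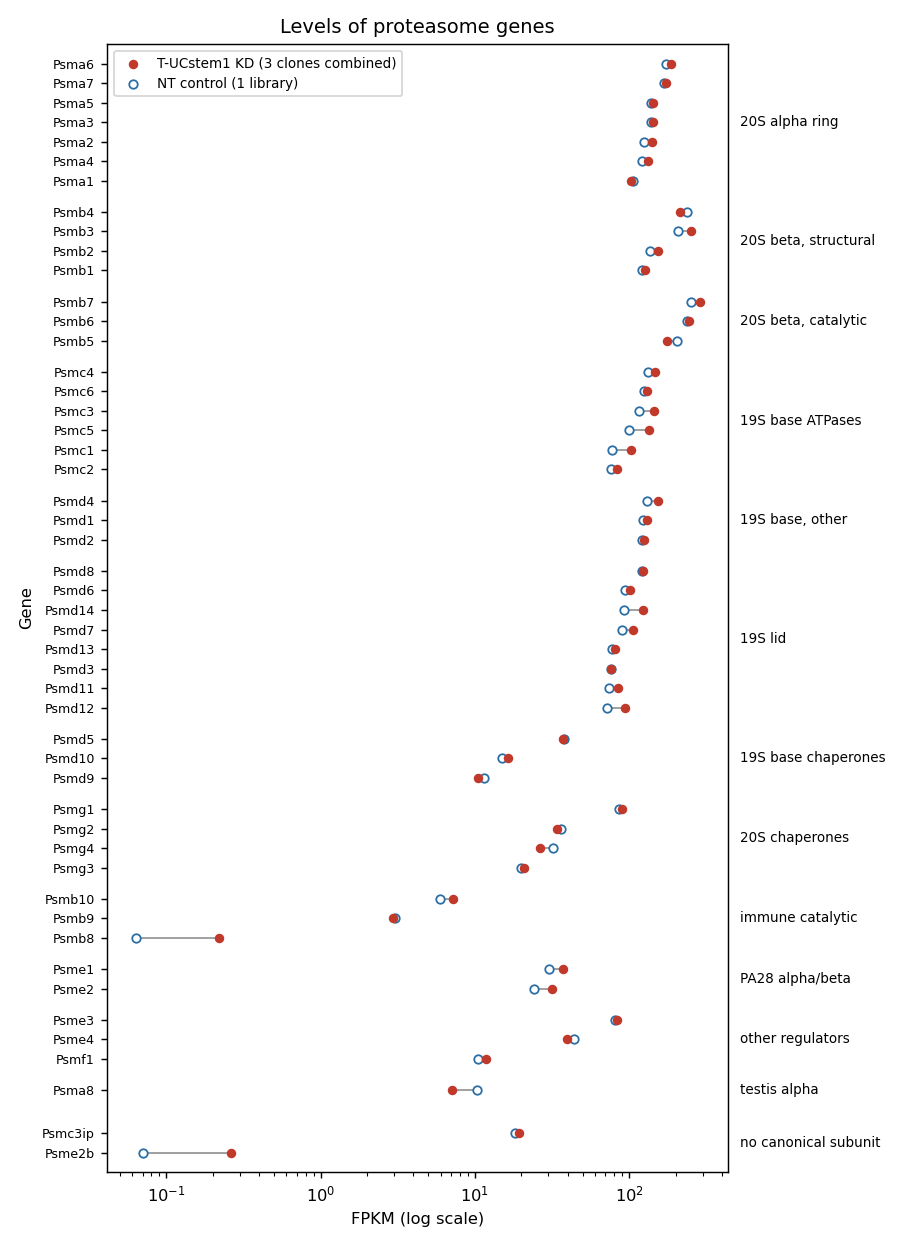
FPKM on a log scale (x axis) of each proteasome gene (y axis, grouped by class) in T-UCstem1 KD cells (filled red, 3 clones combined) and in the NT control (open blue, 1 library), leaving out Psmb11, listed at 0 in KD. Constitutive subunits sit between 71.9 and 287 FPKM in both groups, and the immune catalytic subunits lie below 10 FPKM.

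Over the 31 constitutive genes the median log2 fold was 0.10, with 28 above 0 and 3 below. The 3 below 0 were all core subunits: Psmb5, Psmb4 and Psma1. All 17 genes of the 19S particle that the symbol rule found lay above 0, with a median of 0.15 and a range of 0.0022 to 0.42, while 11 of the 14 core genes did, with a median of 0.072 and a range of -0.22 to 0.28. Adrm1, a receptor of the 19S base that the symbol rule misses, lay below 0 at -0.077. The difference between the core and the 19S particle was not tested. The 5 highest folds among constitutive genes belonged to 19S genes.

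The alpha ring, which gates the entrance of the core, showed the narrowest range of folds in the core. Its 7 genes had a median of 0.053, between -0.030 for Psma1 and 0.17 for Psma2. Psma1 was at 104 FPKM in KD cells and 106 FPKM in NT cells. Psma2 was at 140 FPKM in KD cells and 125 FPKM in NT cells. Psma6, the most abundant of the ring, was at 187 FPKM in KD cells, against 174 FPKM in NT cells. None of these differences passed the test, with q = 0.999 for each of the 3 by the authors' deposited table.

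The structural beta subunits, which complete the ring without a known protease site, included the highest fold of the core. Psmb3 was at 250.2 FPKM in KD cells and 207 FPKM in NT cells, a log2 fold of 0.28 that stayed short of the test's threshold, with q = 0.987 by the authors' deposited table. Psmb4 lay in the other direction, at 214 FPKM in KD cells and 237 FPKM in NT cells. Psmb2 was at 155 FPKM in KD cells and 138 FPKM in NT cells, and Psmb1 at 128 FPKM in KD cells and 120.5 FPKM in NT cells. The catalytic subunits were likewise mixed. Psmb5, which carries the chymotrypsin-like activity and is the main target of bortezomib, was at 175 FPKM in KD cells and 204 FPKM in NT cells, the lowest fold of the constitutive genes at -0.22. Psmb6, the caspase-like subunit, was at 246 FPKM in KD cells and 236 FPKM in NT cells. Psmb7 was at 287 FPKM in KD cells and 253 FPKM in NT cells. The levels of the 3 catalytic genes, whose products sit in the same ring, lay within 1.64-fold of each other in KD cells and 1.24-fold in NT cells.

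The 19S base holds the ATPase ring that pulls substrates into the core. Its 6 ATPase genes had a median log2 fold of 0.24, and all 6 lay above 0. Psmc1, encoding the ATPase Rpt2, was at 103 FPKM in KD cells and 76.9 FPKM in NT cells, and its log2 fold of 0.42 was the highest among the 50 genes of the symbol rule, although it did not pass the test. Psmc5, encoding Rpt6, was at 134 FPKM in KD cells and 100.1 FPKM in NT cells, a log2 fold of 0.42 with p = 0.0815 and q = 0.696 by the authors' deposited table. Psmc3, encoding Rpt5, was at 146 FPKM in KD cells and 116 FPKM in NT cells. The other 3 ATPases differed less, down to 0.079 for Psmc6, at 131 FPKM in KD cells and 124 FPKM in NT cells. The non-ATPase base genes Psmd1 and Psmd2, the scaffolds that dock ubiquitin receptors, had folds of 0.098 and 0.040. Psmd4, the ubiquitin receptor Rpn10, was at 154 FPKM in KD cells and 132 FPKM in NT cells, a log2 fold of 0.22.

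The lid had a median log2 fold of 0.15 over 8 genes. Psmd14, the metalloprotease Rpn11 that cleaves the ubiquitin chain from the substrate, was at 124 FPKM in KD cells and 93.3 FPKM in NT cells, a log2 fold of 0.40 with p = 0.0872 by the authors' deposited table. Psmd12, the scaffold subunit Rpn5, was at 94.8 FPKM in KD cells and 71.9 FPKM in NT cells, a log2 fold of 0.39 with p = 0.0893 by the authors' deposited table. The q of Psmd14 was 0.711 and that of Psmd12 was 0.718 in the same table, so neither was called. Psmd3, the scaffold Rpn3, showed the smallest difference, at 76.0 FPKM in KD cells and 75.8 FPKM in NT cells. Psmd7, the inactive partner of Psmd14, was at 106 FPKM in KD cells and 89.7 FPKM in NT cells. Shfm1, a small acidic lid protein outside the symbol rule, was at 331 FPKM in KD cells and 229 FPKM in NT cells, a log2 fold of 0.53, above that of every gene of the rule, with p = 0.0408 and q = 0.515 by the authors' deposited table. Shfm1 lies on chromosome 6, whose 628 tested named rows had a median of 0.26. No gene of the symbol rule lies on chromosome 6, 10 or Y. Adrm1, a ubiquitin receptor of the base that the symbol rule also misses, was at 120.5 FPKM in KD cells and 127 FPKM in NT cells.

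The promoters of the 4 genes with the highest folds are shown because all 4 encode parts of the 19S particle, and that of Psmb5 because it had the lowest fold among constitutive genes. Each is the 250 bases before the RefSeq start on build GRCm38.p6, written 5′ to 3′ on the strand of the gene. Psmc1 is at chr12:100109952-100110201, plus strand, Psmc5 at chr11:106255935-106256184, plus strand, Psmd14 at chr2:61711444-61711693, plus strand, Psmd12 at chr11:107479278-107479527, plus strand and Psmb5 at chr14:54617996-54618245, minus strand. Capitals mark matches, on either strand, to the antioxidant response element core TGANNNNGC, CCAAT, the ETS site CCGGAAG, the nuclear respiratory factor 1 site (GCGCA and GCGC with any 1 base between), the interferon-stimulated element (GAAA and GAAA with any 2 bases between) and the gamma-activated site TTCNNNGAA.
Psmc1: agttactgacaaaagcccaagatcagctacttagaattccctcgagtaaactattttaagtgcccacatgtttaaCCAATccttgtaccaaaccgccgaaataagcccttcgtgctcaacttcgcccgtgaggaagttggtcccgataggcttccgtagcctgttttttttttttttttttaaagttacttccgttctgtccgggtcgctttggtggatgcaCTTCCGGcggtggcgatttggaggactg
Psmc5: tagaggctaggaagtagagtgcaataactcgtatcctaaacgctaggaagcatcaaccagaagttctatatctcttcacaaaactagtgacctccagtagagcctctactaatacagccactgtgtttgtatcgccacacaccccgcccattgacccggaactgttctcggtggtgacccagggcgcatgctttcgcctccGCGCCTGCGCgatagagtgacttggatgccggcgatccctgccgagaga
Psmd14: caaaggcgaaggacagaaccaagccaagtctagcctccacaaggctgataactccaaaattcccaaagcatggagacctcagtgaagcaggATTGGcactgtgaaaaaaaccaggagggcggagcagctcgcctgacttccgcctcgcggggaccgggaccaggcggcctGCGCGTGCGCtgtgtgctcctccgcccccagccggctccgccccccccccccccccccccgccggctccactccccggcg
Psmd12: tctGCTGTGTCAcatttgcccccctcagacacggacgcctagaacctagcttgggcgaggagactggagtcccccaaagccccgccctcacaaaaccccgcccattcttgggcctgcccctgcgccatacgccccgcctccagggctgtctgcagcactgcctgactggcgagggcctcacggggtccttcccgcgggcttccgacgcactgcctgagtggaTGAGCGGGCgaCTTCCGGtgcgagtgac
Psmb5: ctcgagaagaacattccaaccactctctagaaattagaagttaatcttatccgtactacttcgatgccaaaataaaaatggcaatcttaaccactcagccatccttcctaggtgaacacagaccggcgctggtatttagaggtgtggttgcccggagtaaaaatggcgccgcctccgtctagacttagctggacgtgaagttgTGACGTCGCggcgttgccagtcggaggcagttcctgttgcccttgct

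These promoters hold different letters. Psmc1 has a CCAAT at positions -175 to -171 and an ETS match at -28 to -22, counted from the start at position 1 with no position 0. Psmc5 has a nuclear respiratory factor match at -49 to -40, and Psmd14 has one at -80 to -71 together with a CCAAT in reverse at -159 to -155. Psmd12 has antioxidant response element matches at -247 to -239 and at -28 to -20, with an ETS match at -17 to -11. Psmb5 has an antioxidant response element match at -47 to -39 that overlaps the sequence TGACGT, another motif searched. No motif of the 6 was found in all 5.

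Across the family, 42 of the 50 genes had a promoter in the RefSeq table, and 27025 genes had one in all. The core of the antioxidant response element, which Nfe2l1 binds to drive proteasome genes when the protease is inhibited, was in 17 of the 42, or 40.5%, where 38.7% of all genes held it. A CCAAT box was in 15 of the 42 (35.7%), beside 37.5% of all. The ETS site was in 13 of the 42 (31.0%), beside 7.83%, and the nuclear respiratory factor site in 6 (14.3%), beside 4.23%. The GC box GGGCGG was in 22 (52.4%), beside 35.4%. The interferon-stimulated element was in 3, beside 3.46% of all genes, and the gamma-activated site in 2, beside 8.13%. The AP-1 site TGAGTCA was in 1, beside 5.16%, TGACGT in 4, beside 7.29%, and the YY1 site in 0, beside 0.248%. A match is a run of letters and not a measured binding site, and none of these shares was tested. The 27025 genes were not chosen by FPKM. Whether other genes at the levels of the proteasome genes hold these letters as often was not tested. Psma8, Psmb1, Psmb2, Psmb7, Psmc3, Psmd3, Psmd7 and Psmg2 had no entry.

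The immune catalytic subunits were low in both groups, and their constitutive counterparts were far more abundant. Psmb8, the immune counterpart of Psmb5, was at 0.218 FPKM in KD cells and 0.0630 FPKM in NT cells and was not tested by the authors. Psmb9, the counterpart of Psmb6, was at 2.94 FPKM in KD cells and 3.06 FPKM in NT cells, with q = 0.999 by the authors' deposited table. Psmb10, the counterpart of Psmb7, was at 7.21 FPKM in KD cells and 5.95 FPKM in NT cells in a row shared with Ctrl, a chymotrypsin-like protease gene. The values of KD and NT lie close to each other for Psmb9 and Psmb10, and both values of Psmb8 are near 0. Psmb8 stood at 0.124% of the Psmb5 level in KD cells and 0.0309% in NT cells. Psmb9 stood at 1.19% of Psmb6 in KD cells and 1.30% in NT cells, and Psmb10 at 2.51% of Psmb7 in KD cells and 2.35% in NT cells. Psmb11, the catalytic subunit of the thymus cortex, was listed at 0 in KD cells and at 0.00786 FPKM in NT cells.

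PA28 alpha and beta, the interferon-inducible ring that opens the core without ATP, were expressed at an intermediate level and had the highest class median. Psme1 was at 37.2 FPKM in KD cells and 30.1 FPKM in NT cells, a log2 fold of 0.30 with q = 0.999 by the authors' deposited table. Psme2 was at 31.6 FPKM in KD cells and 24.2 FPKM in NT cells, a log2 fold of 0.37 with q = 0.999 by the same deposited table. These genes neighbour each other on chromosome 14 (56197330 to 56204151 and 56206276 to 56229125 on mm9, as the table gives them), 2.12 kb apart. Over the 5 immune and PA28 alpha/beta genes the median was 0.24, with 4 above 0 and 1 below. Psme3, the nuclear PA28 gamma, was at 83.4 FPKM in KD cells and 81.0 FPKM in NT cells in its shared row. Psme4, the PA200 activator of spermatogenesis and DNA repair, was at 39.6 FPKM in KD cells and 44.2 FPKM in NT cells, and Psmf1, an inhibitor of the core in vitro, at 11.8 FPKM in KD cells and 10.6 FPKM in NT cells.

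**Figure D3:**
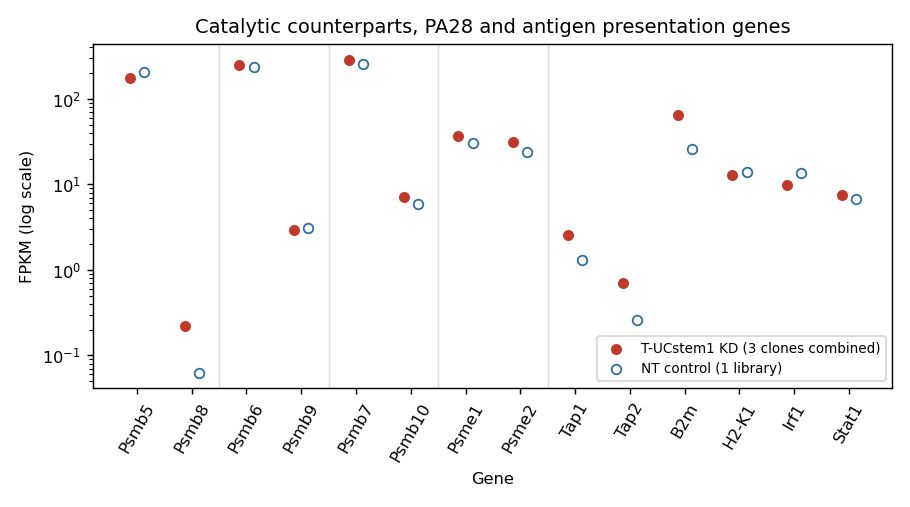
FPKM on a log scale (y axis) of the catalytic counterparts, PA28 alpha/beta and antigen presentation genes (x axis) in T-UCstem1 KD cells (filled red, 3 clones combined) and in the NT control (open blue, 1 library). Psmb8 lies below 1 FPKM while Psmb5 stands at 175 FPKM in KD and 204 FPKM in NT. B2m has the widest difference in FPKM among the antigen presentation genes, at 64.3 in KD and 26.2 in NT. On the log axis the gap of Tap2 is wider, at 0.698 FPKM in KD and 0.263 FPKM in NT.

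Antigen processing genes that act with the immune subunits were not called in either direction. Calls were rare among all tested rows as well, with 0.963% marked higher and 0.187% lower. Of 8 such genes 7 were tested, and 6 of the 8 lay above 0 with a median of 0.21. B2m, the light chain of MHC class I, was at 64.3 FPKM in KD cells and 26.2 FPKM in NT cells, a log2 fold of 1.26 with p = 0.00955 and q = 0.246 by the authors' deposited table. The MHC class I genes H2-K1 and H2-D1 differed less, with log2 folds of -0.11 and 0.11. H2-K1 was at 12.8 FPKM in KD cells and 13.9 FPKM in NT cells. H2-D1 was at 17.8 FPKM in KD cells and 16.4 FPKM in NT cells, in a row shared with H2-L. Tap1, a subunit of the transporter that carries proteasome peptides into the endoplasmic reticulum, was at 2.55 FPKM in KD cells and 1.31 FPKM in NT cells, a log2 fold of 0.62 with q = 0.741 by the authors' deposited table. Psmb9 and Tap1 are divergent neighbours that share a promoter region, and their folds were -0.041 and 0.62. The 250 bases before the Psmb9 start (chr17:34187331-34187580, minus strand) are shown beside those of Psmb8 (chr17:34197945-34198194, plus strand), the immune gene with the lowest level, with capitals as above.
Psmb9: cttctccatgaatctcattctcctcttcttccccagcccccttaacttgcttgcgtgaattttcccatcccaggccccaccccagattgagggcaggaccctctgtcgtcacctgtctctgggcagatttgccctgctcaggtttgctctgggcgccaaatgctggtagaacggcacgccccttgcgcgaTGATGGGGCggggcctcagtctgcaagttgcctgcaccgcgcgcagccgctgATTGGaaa
Psmb8: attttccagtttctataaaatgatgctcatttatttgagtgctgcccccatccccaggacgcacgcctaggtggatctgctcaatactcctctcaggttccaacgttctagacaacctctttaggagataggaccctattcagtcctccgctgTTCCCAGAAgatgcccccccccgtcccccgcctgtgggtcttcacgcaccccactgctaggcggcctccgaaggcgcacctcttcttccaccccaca
Psmb9 holds an antioxidant response element match at -60 to -52 and a reverse CCAAT at -8 to -4, and Psmb8 a gamma-activated site match at -97 to -89. No interferon-stimulated element match was found in these windows for any of the 5 immune and PA28 alpha/beta genes.

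The 6 interferon pathway genes had no call, where 0.963% of all tested rows were marked higher and 0.187% lower. Of these genes 4 lay above 0 and 2 below, and their median was 0.11. Ifngr2, a chain of the interferon gamma receptor, was at 5.04 FPKM in KD cells and 2.77 FPKM in NT cells. Jak1, a kinase of that receptor, was at 14.8 FPKM in KD cells and 10.4 FPKM in NT cells. Ifngr1 was at 3.76 FPKM in KD cells and 4.62 FPKM in NT cells, and Jak2 at 2.58 FPKM in KD cells and 2.36 FPKM in NT cells. Irf1, the factor that induces immune subunits, was lower in value, at 9.82 FPKM in KD cells and 13.4 FPKM in NT cells, with q = 0.929 by the authors' deposited table.

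Markers of other cell types stood as follows beside the immune subunits. Among all tested rows 0.963% were marked higher and 0.187% lower. All 6 extraembryonic endoderm markers were called higher in KD cells, with a summed level of 167 FPKM in KD and 31.2 FPKM in NT. Of 6 fibroblast markers 5 lay above 0 and none was called among the 4 tested, with a summed level of 17.6 FPKM in KD and 9.91 FPKM in NT. The collagen genes of that list differed more than the sum. Col1a1 was at 3.63 FPKM in KD and 0.920 FPKM in NT, with p = 0.0018 by the authors' deposited table. Col1a2 was at 4.03 FPKM in KD and 1.12 FPKM in NT, with p = 0.0006 and q = 0.0505 by the authors' deposited table. The ES cell markers summed to 3254 FPKM in KD and 3183 FPKM in NT, 3 above 0 and 3 below, none called. Blood and macrophage markers summed to 3.39 FPKM in KD and 3.38 FPKM in NT over the 5 genes with a row of their own, which joins differences in both directions. Itgam was at 2.44 FPKM in KD and 3.20 FPKM in NT, Cd3e at 0.797 FPKM in KD and 0.0905 FPKM in NT, and Ptprc, the leukocyte antigen CD45, at 0.0159 FPKM in KD and 0.00544 FPKM in NT. Cd3e had p = 0.0278 by the authors' deposited table and was not called. No marker of the 4 lists was listed at 0 in either group. The part of endoderm or fibroblast cells in the values of PA28 alpha/beta, B2m or any other gene here was not tested, and in bulk RNA a changed share of cells and a changed level per cell cannot be told apart.

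The assembly chaperones, which build the particle and then leave it, showed no common direction. Their 7 genes had a median of -0.023, with 3 above 0 and 4 below. Psmg4, which helps to form the alpha ring, was at 26.4 FPKM in KD cells and 32.1 FPKM in NT cells, a log2 fold of -0.27 with q = 0.999 by the authors' deposited table. Its partner Psmg3 was at 20.9 FPKM in KD cells and 20.002 FPKM in NT cells. Psmg2 was at 33.8 FPKM in KD cells and 36.2 FPKM in NT cells, and its partner Psmg1 at 90.0 FPKM in KD cells and 86.2 FPKM in NT cells in a row that Brwd1 shares. Of the base chaperones Psmd9 was the least abundant, at 10.4 FPKM in KD cells and 11.5 FPKM in NT cells. Psmd10, also known as the oncoprotein gankyrin, was at 16.3 FPKM in KD cells and 14.9 FPKM in NT cells, and Psmd5 at 37.5 FPKM in KD cells and 38.1 FPKM in NT cells. Pomp, the maturation factor outside the symbol rule, was at 113 FPKM in KD cells and 96.0 FPKM in NT cells.

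Psma8, the alpha subunit of the testis, had the lowest fold of all 50 genes. It was at 7.09 FPKM in KD cells and 10.3 FPKM in NT cells, a log2 fold of -0.48 with p = 0.225 and q = 0.958 by the authors' deposited table. Psma7, the somatic subunit it replaces in spermatocytes, was at 174 FPKM in KD cells and 168 FPKM in NT cells. Psmc3ip was at 19.5 FPKM in KD cells and 18.1 FPKM in NT cells.

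Genes that control or assist the proteasome were not called either, where 0.963% of all tested rows were marked higher and 0.187% lower. Nfe2l1, the factor that restores proteasome gene expression when degradation fails, was at 76.6 FPKM in KD cells and 83.4 FPKM in NT cells, and the list of 5 such regulators had a median of -0.049. Its largest difference was that of Keap1, an inhibitor of the related factor Nfe2l2, at 7.61 FPKM in KD cells and 9.19 FPKM in NT cells. Among 7 proteasome-bound deubiquitinases and ubiquitin receptors 4 lay above 0 and 3 below. Uchl5, a deubiquitinase recruited by Adrm1, was at 35.0 FPKM in KD cells and 19.9 FPKM in NT cells, a log2 fold of 0.78 with p = 0.0093 and q = 0.242 by the authors' deposited table. Rad23b, a shuttle receptor, was at 150.4 FPKM in KD cells and 131 FPKM in NT cells. Vcp, the segregase that extracts substrates, was at 149 FPKM in KD cells and 124 FPKM in NT cells. The 5 genes reported of the list of ubiquitin, its activating enzyme and the segregase lay above 0, with a median of 0.15 and no call.

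The tested genes lie on 16 chromosomes, with 9 on chromosome 11 and 6 on chromosome 2. The chromosome 2 members had a median fold of 0.17, where all tested named rows of that chromosome had 0.077, and those of chromosome 11 had 0.10 beside 0.041. Neighbouring members did not always share a direction. Psmb4 and Psmd4 lie 146 kb apart on chromosome 3 with folds of -0.15 and 0.22. Psme1 and Psme2 lie 2.12 kb apart on chromosome 14 with folds of 0.30 and 0.37. Psmb9 and Psmb8 lie 10.9 kb apart on chromosome 17, and Psmb5 and Psmb11 7.31 kb apart on chromosome 14. In those pairs Psmb8 and Psmb11 were untested and under 1 FPKM in both groups, so no shared or opposite direction is read from them.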

How the data were processed

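Total RNA of 3 KD clones and 1 NT culture was sequenced. The submitters' processing notes name TopHat, Cufflinks, Cuffdiff and the build mm9; versions, options and annotation are not stated there. The authors deposited 1 FPKM per gene for a condition named treated, taken as the KD clones combined, and 1 for control, taken as the NT library, with p-value and q-value from Cuffdiff, per the file headers. The labels give no depth per library, so no counting interval accompanies an FPKM. Use of strand is not stated. Log2 folds were recomputed with a pseudocount of 1 FPKM in Python 3.11.15 with pandas 2.3.3. The code was also run on simulated folds set by the same formula without noise, which checks its arithmetic only. No test of differential expression was run, since each condition has 1 value. For a symbol in several rows, that with the highest mean FPKM was kept. Loci are printed as the table gives them.

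Members and gene lists were chosen with earlier results of these data known. Genes named were the members marked by the authors (none), all immune and PA28 alpha/beta genes, the 4 highest and 4 lowest folds among those at 1 FPKM or more, the 3 most abundant, the extremes of each class, and the 2 largest differences of each pathway list. Other genes named were chosen after their values were seen, and 1 pathway gene is not reported here. Promoters came from RefSeq (GRCm38.p6), matched by symbol. The 10 motifs searched were chosen after these data were seen. Alternatives tried were another pseudocount, an FPKM minimum, summed rows, rows with 1 symbol, tested rows only, centring on the median gene, leaving out chromosomes 6, 10 and Y, and other thresholds.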

Additional observations from a re-analysis of the deposited data

How the results depend on the processing

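Of 41 recomputed values 32 stayed within 0.01 of the reported median or within 1.5 times the reported count. With a pseudocount of 0.1 FPKM the immune and PA28 alpha/beta median was 0.31, and 3 members passed a fold size of 0.5, namely Psma8, Psmb8 and Psme2b. With members of at least 1 FPKM, or with tested rows only, the immune median was 0.27. Centring on the median named gene, which stood at 0.022, gave medians of 0.082 for constitutive subunits, 0.22 for immune subunits and -0.045 for assembly chaperones, and 1 member, Psma8, passed 0.5. With rows of 1 symbol only the chaperone median was -0.058. No median changed sign. The authors' mark is fixed, so the count of members called could only stay at 0 when members were left out. That count was not recomputed for the other pseudocount, the summed rows or the centring. At an unadjusted p under 0.05 it was 0 as well. The FPKM minimum and the limit to tested rows removed no constitutive subunit or chaperone, so those medians could not move. No member lies on chromosomes 6, 10 or Y, so leaving them out changed nothing. Leaving out a replicate was not possible from 1 value per condition. No paired analysis was possible because the clones have no values of their own and the control is 1 library. The cause of these shifts was not tested. The unknown depth limits what can be said of Psmb8, Psmb11 and Psme2b.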

Other observations

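Genes of other multi-subunit complexes were also not called, where 0.963% of all tested rows were marked higher and 0.187% lower. These lists were chosen after the data were seen. Their median levels were 66.4 FPKM in KD and 67.8 FPKM in NT for the COP9 signalosome and 244 FPKM in KD and 237 FPKM in NT for the CCT chaperonin. The COP9 signalosome, which removes NEDD8 from cullin ligases and resembles the proteasome lid in its subunits, had 9 genes tested, none called, 5 above 0 and 4 below, with a median log2 fold of 0.070. Cops7a was at 99.2 FPKM in KD cells and 83.6 FPKM in NT cells, and Cops7b at 26.2 FPKM in KD cells and 33.2 FPKM in NT cells. The CCT chaperonin, which folds actin and tubulin, had 8 genes tested, none called, 5 above 0 and 3 below, with a median of 0.11. Cct7 had the highest fold of that complex, at 206 FPKM in KD cells and 145 FPKM in NT cells, with p = 0.0467 and q = 0.548 by the authors' deposited table. Cct7 and Cops7a lie on chromosome 6, whose 628 tested named rows had a median log2 fold of 0.26.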
